A study of Arabidopsis thaliana with 8 samples.

Results

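The 10 genes followed here set the pattern of leaf hairs and root hairs, and were measured in 6-day-old Arabidopsis thaliana seedlings that lack the regulator TT8. They are the R2R3 MYB activators GL1 (AT3G27920, also MYB0), MYB23 (AT5G40330) and WER (AT5G14750, also MYB66), the downstream factors GL2 (AT1G79840) and TTG2 (AT2G37260, also WRKY44), and the small R3 MYB inhibitors TRY (AT5G53200), CPC (AT2G46410), ETC1 (AT1G01380), ETC2 (AT2G30420) and ETC3 (AT4G01060, also CPL3). The 10 loci were listed by name and found through the transcript accession of each probe, which gave 11 probes for 10 of the 25433 genes named on the array, with a pair of probes for ETC3. The tested plants were tt8-3 mutants in the Ws background, in which TT8 function is lost, and the controls were wild-type Ws seedlings of the same age, both grown on sucrose medium under long days and harvested whole. Each line was read on 4 one-colour arrays over 2 slides. No second allele or complemented line is among the samples, and the place of the lesion within TT8 is not given in the sources used here.

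Leaf hairs, or trichomes, and the hairless cells of the root epidermis are specified by a complex of an R2R3 MYB factor, a bHLH factor and the WD40 protein TTG1. In shoots the complex with GL1 or MYB23 turns on GL2 and TTG2 in cells that become trichomes, and in roots the complex with WER turns on GL2 in cells that stay hairless. The same complex also turns on R3 MYB proteins, which move to neighbouring cells, take the place of the R2R3 MYB on the bHLH factor and so block the fate next door. GL3 and EGL3 are the main bHLH partners in these epidermal cells, and TT8 is their paralogue, known best for flavonoid pigments of the seed coat.

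Levels are log2 of the processed spot signal minus log2 of the 75th percentile of the array, so that a more negative number is a dimmer spot, and levels of different probes are not comparable with each other. The 75th percentile was 751 to 1108 signal units on tt8-3 arrays and 545 to 981 on wild-type arrays, and 70.9% to 77.3% of probes on tt8-3 arrays and 69.0% to 71.7% on wild-type arrays were well above background. On each slide tt8-3 lay at positions 3 and 4 and wild type at positions 1 and 2, so position and genotype cannot be told apart. Both arrays that a line had on each slide were averaged as technical replicates, which gives n = 2 per line, and changes are tt8-3 minus wild type from limma, with p-values adjusted over 19226 genes and a threshold of 0.05. The design text can also be read with arrays of the same position on both slides as the technical replicates. Since the choice changes the spread, the adjusted p for that reading, or the count that passed under it, is printed beside the calls. TT8 (AT4G09820) itself had levels of -6.03, -5.56, -6.94 and -7.07 on the 4 tt8-3 arrays, none well above background, against 4.27, 4.40, 4.19 and 4.29 on the wild-type arrays. Taking the lowest signal called well above background as a limit, TT8 was lower by at least 1520-fold in the mutant (limma, adjusted p = 0.0018, and 0.00063 with arrays averaged by position), so the libraries went with their labels.

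Among the 10 genes, 5 were higher and 1 was lower in tt8-3 by the slide averages. These were GL1, MYB23, GL2, TTG2 and CPC on the higher side and ETC3 on the lower side. Across all genes tested, 26.7% passed the same threshold, 15.7% higher and 10.9% lower. Scaling on the array median instead gave 2150 higher and 2632 lower genes, against 3027 and 2104 here, and the 10 genes again gave 5 and 1. All 10 genes passed the filter on dim signals, but GL1 and TRY did so only through tt8-3. Of the 8 genes well above background on all 8 arrays 4 were higher and 1 lower. Among all 18301 genes that met this stricter filter, 2625 were higher and 2112 lower. With arrays averaged by position 1 gene, GL1, was higher, where 3.12% of all genes passed, 2.74% higher and 0.38% lower. With slide as a block on the slide averages all 10 passed, 9 higher and 1 lower, where 64.5% of all genes passed, 33.8% higher and 30.7% lower. When that block was fitted to the 8 arrays one by one, 6 passed, 5 higher and 1 lower, where 34.3% of all genes passed, 20.3% higher and 14% lower. The calls of WER, TRY, ETC1 and ETC2 under a slide block therefore rest on averaging the arrays first. The median change of the 10 genes was 0.77, beside 0.01 over all genes tested, and 5.86% of all genes were higher by over 1 log2 unit, as were GL1, MYB23, GL2 and TTG2. Since RNA came from whole seedlings, fewer cells of a type and less RNA per cell cannot be told apart.

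**Figure D1:**
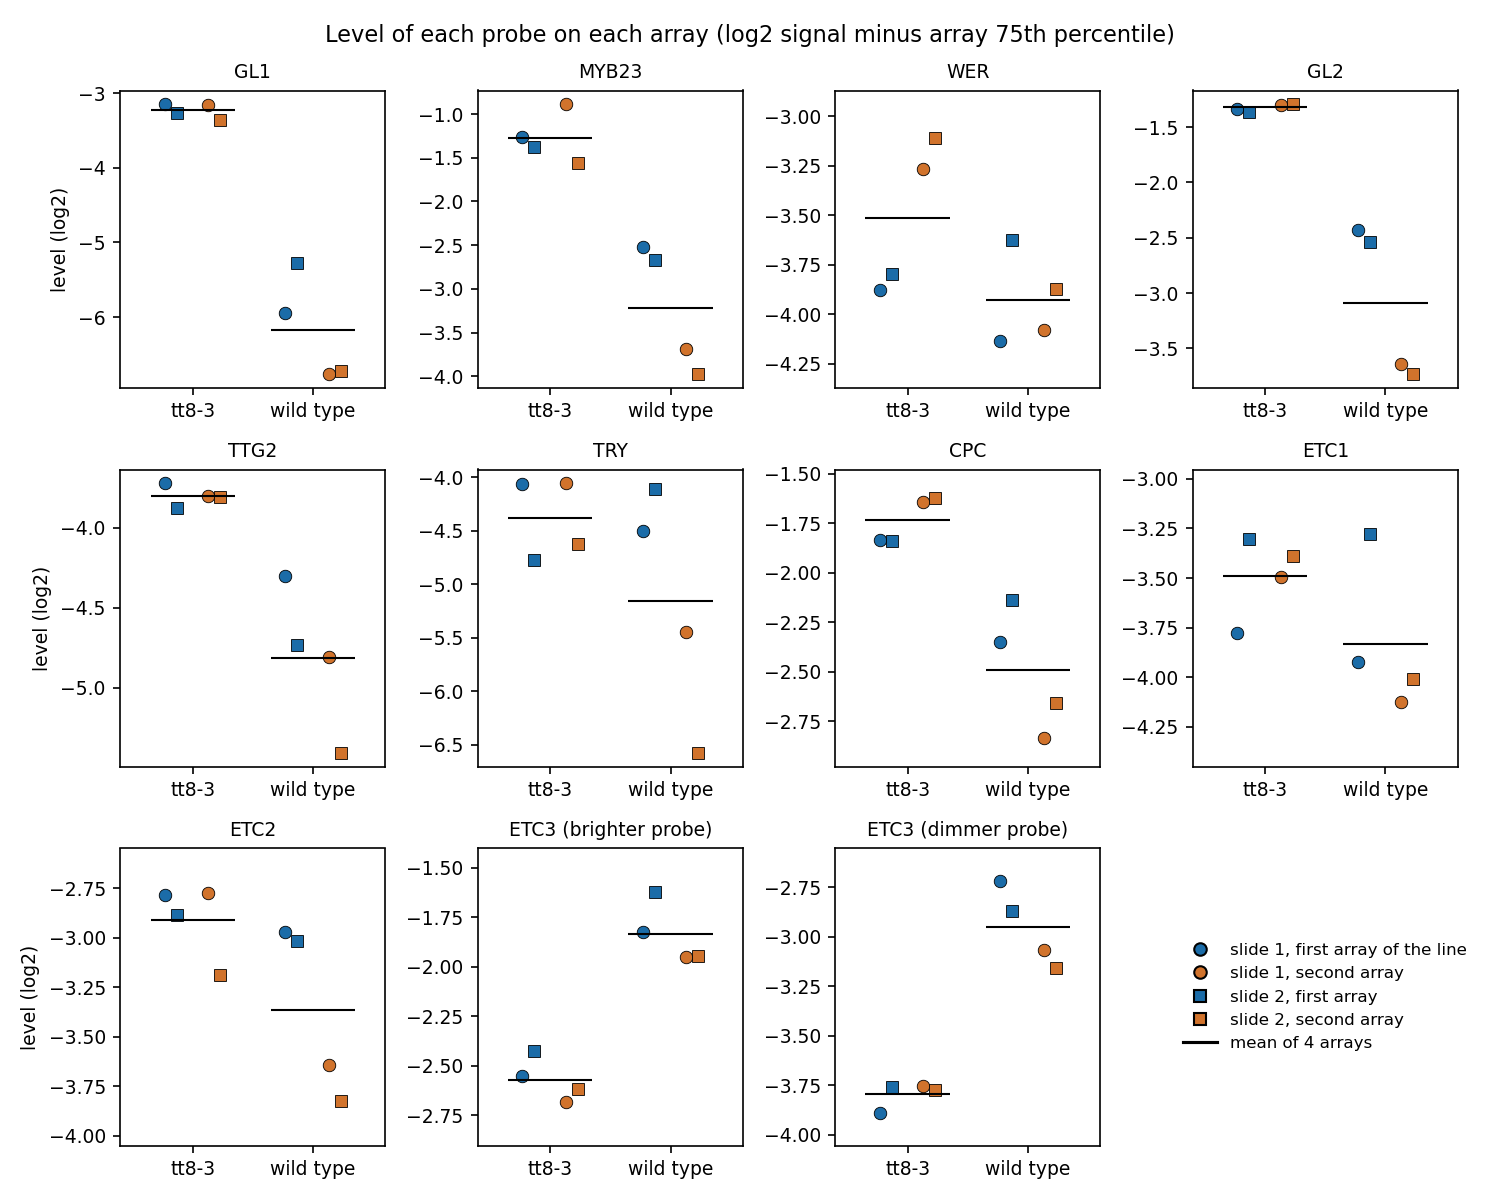
Level of each of the 11 probes on each of the 8 arrays, on the log2 scale relative to the array's 75th percentile, with tt8-3 left of wild type in each panel, circles for slide 1, squares for slide 2, blue for the first and orange for the second array of a line on its slide, and a black line at the mean of 4 arrays. Vertical scales differ between panels. The tt8-3 points of GL1, MYB23, GL2, TTG2 and CPC all lie above the wild-type points, both ETC3 probes lie below them, and WER, TRY, ETC1 and ETC2 overlap.

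The activators GL1 and MYB23 had the largest changes of the 10 genes. GL1, the R2R3 MYB without which leaves form hardly any trichomes, had levels of -3.15, -3.16, -3.26 and -3.36 on tt8-3 arrays, against -5.94, -6.76, -5.27 and -6.72 on wild-type arrays. Every tt8-3 array was above every wild-type array, by at least 1.92 log2 units. The processed signal of GL1 was 83.8 to 108 units on tt8-3 arrays and 7.40 to 20.3 on wild-type arrays, and it was well above background on 4 tt8-3 arrays but on 1 wild-type array. Its level averaged -3.23 ± 0.11 in tt8-3 and -6.18 ± 0.25 in wild type (SD, n = 2 each), a log2 change of 2.94 (SE 0.16, limma adjusted p = 0.0031), or 7.69-fold on this scale. Since 3 wild-type arrays give only a limit for GL1, the fold is not exact, and raising those arrays to the lowest signal well above background made it 6.14-fold, a limit added after seeing the data. GL1 also passed with arrays averaged by position (adjusted p = 0.040), but it entered these fits through its tt8-3 signal alone and is not among the genes measured on all 8 arrays. With normexp background correction, which adds an offset of 50 units to each spot, and 1 GL1 spot of flagged background left out, the change was 1.08 (adjusted p = 0.0084), so its size depends on how the dim wild-type signal is treated.

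MYB23, a close relative of GL1 that acts in trichome initiation and branching, had levels of -1.26, -0.88, -1.37 and -1.56 on tt8-3 arrays, against -2.52, -3.69, -2.67 and -3.98 on wild-type arrays. The groups did not overlap, and the wild-type arrays fell into a brighter and a dimmer pair by position. The log2 change was 1.94 (SE 0.17, adjusted p = 0.0076), or 3.85-fold, and it was 2.03 on slide 1 and 1.86 on slide 2. It did not pass with arrays averaged by position (adjusted p = 0.097), where the spread between the wild-type pairs enters the error. With normexp the change was 1.16 (adjusted p = 0.0068).

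WER, the R2R3 MYB that marks hairless cells of the root, did not pass. Its levels were -3.88, -3.27, -3.80 and -3.11 on tt8-3 arrays, against -4.13, -4.08, -3.63 and -3.87 on wild-type arrays. The groups overlapped, and here the tt8-3 arrays split by position, with those at position 4 the higher ones. The log2 change of 0.41 (SE 0.15) had an adjusted p = 0.12, and 0.39 with arrays averaged by position. With the slide block it passed on slide averages (adjusted p = 0.018) and not on single arrays (0.14).

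Both downstream factors were higher in tt8-3. GL2, a homeodomain factor of the HD-ZIP IV class that acts in trichome outgrowth and in hairless root cells, had levels of -1.34, -1.30, -1.36 and -1.29 on tt8-3 arrays, against -2.43, -3.64, -2.54 and -3.73 on wild-type arrays. The 4 tt8-3 arrays lay within an SD of 0.033, while the wild-type arrays had an SD of 0.70 and again formed a brighter and a dimmer pair. The log2 change was 1.77 (SE 0.089, adjusted p = 0.0029), or 3.40-fold, with 1.72 on slide 1 and 1.81 on slide 2. With arrays averaged by position its adjusted p was 0.11, and with normexp, again with 1 spot left out, its change was 1.07 (adjusted p = 0.010).

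TTG2, a WRKY factor that acts in trichome outgrowth and in the tannins and mucilage of the seed coat, had levels of -3.72, -3.80, -3.87 and -3.81 on tt8-3 arrays, against -4.30, -4.81, -4.73 and -5.41 on wild-type arrays. The groups did not overlap, and the gap between the nearest arrays was 0.43. The log2 change was 1.01 (SE 0.20, adjusted p = 0.032), or 2.02-fold. Its call was the least steady of the 6. It was lost with arrays averaged by position (adjusted p = 0.11), with quantile normalization (0.064) with normexp (0.21, at a change of 0.33) and with no filter on detection (0.075), without wild-type array 2 (0.086) or 3 (0.063), without the wild-type arrays of slide 2 (0.065) and without the tt8-3 arrays of slide 1 (0.074).

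**Figure D2:**
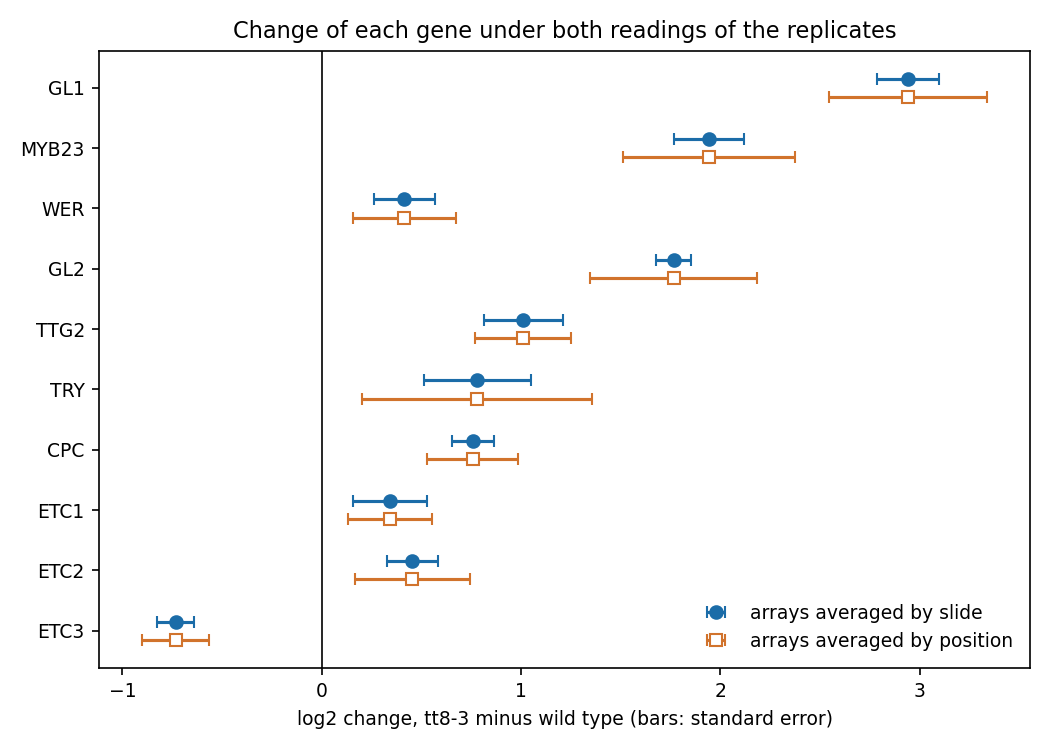
Log2 change of each of the 10 genes, tt8-3 minus wild type, with its standard error from limma, for arrays averaged by slide (filled circles) and by position (open squares). The changes are the same and the errors differ, from 0.16 to 0.40 for GL1 and from 0.089 to 0.42 for GL2, while the error of ETC1 is 0.19 and 0.21.

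Of the 5 R3 MYB inhibitors, 4 had positive changes, all but ETC3. By slide averages 1 was higher, 1 was lower and 3 did not pass, where 15.7% of all genes were higher and 10.9% lower. With arrays averaged by position 0 of the 5 passed. CPC, which moves between cells and promotes root hairs and suppresses trichomes, had levels of -1.83, -1.64, -1.84 and -1.63 on tt8-3 arrays, against -2.35, -2.83, -2.14 and -2.66 on wild-type arrays. The groups did not overlap, with a gap of 0.30. The log2 change was 0.76 (SE 0.11, adjusted p = 0.016), or 1.69-fold, and it did not pass with arrays averaged by position (adjusted p = 0.15). The call was also lost without wild-type array 4 (adjusted p = 0.082), without the tt8-3 arrays of slide 1 (0.053) and without the wild-type arrays of slide 1 (0.090).

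ETC3, an R3 MYB that acts with CPC and TRY, was the one gene of the 10 with less signal in tt8-3. Its brighter probe had levels of -2.55, -2.68, -2.43 and -2.62 on tt8-3 arrays, against -1.82, -1.95, -1.62 and -1.95 on wild-type arrays. The groups did not overlap, and the log2 change of -0.73 (SE 0.095, adjusted p = 0.014) made it 1.66-fold lower in tt8-3. The dimmer probe of ETC3 had levels of -3.89, -3.75, -3.76 and -3.77 on tt8-3 arrays, against -2.72, -3.06, -2.87 and -3.16 on wild-type arrays. Both probes therefore ran the same way, and the dimmer one changed by -0.84 (SE 0.098, adjusted p = 0.014 over 30683 probes, a fit in which 13.1% of probes were higher and 10.6% lower). With arrays averaged by position the brighter probe had an adjusted p = 0.10 over genes. In the fit over probes it had 0.092 and the dimmer one 0.078, where 3.88% were higher and 0.785% lower. The call at the brighter probe was lost without the tt8-3 arrays of slide 1 (adjusted p = 0.055) and without the wild-type arrays of slide 1 (0.064) or slide 2 (0.083).

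TRY, the main inhibitor of trichome clusters, had levels of -4.06, -4.05, -4.77 and -4.63 on tt8-3 arrays, against -4.50, -5.44, -4.11 and -6.58 on wild-type arrays. The groups overlapped, and the lowest wild-type array was not well above background. The log2 change was 0.78 (SE 0.27, adjusted p = 0.10), and without that array it was 0.16 (adjusted p = 0.78). With normexp and 1 TRY spot left out the change was -0.16, and without the tt8-3 arrays of slide 2 the gene passed on the higher side (adjusted p = 0.026).

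ETC1 and ETC2, which act redundantly with TRY and CPC, did not pass. ETC1 had levels of -3.78, -3.50, -3.30 and -3.39 on tt8-3 arrays, against -3.92, -4.13, -3.28 and -4.01 on wild-type arrays. ETC2, an R3 MYB of leaf trichome number, had levels of -2.78, -2.77, -2.88 and -3.19 on tt8-3 arrays, against -2.97, -3.64, -3.02 and -3.83 on wild-type arrays. In both genes the groups overlapped. The log2 change was 0.34 for ETC1 (SE 0.19, adjusted p = 0.24) and 0.46 for ETC2 (SE 0.13, adjusted p = 0.068). With the slide block TRY (adjusted p = 0.0058), ETC1 (0.010) and ETC2 (0.0080) passed on slide averages, and none of these did on single arrays (0.26, 0.15 and 0.14). ETC2 also passed without tt8-3 array 4 (adjusted p = 0.034).

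By array, 5 of the 10 genes had every tt8-3 array above every wild-type array and 1 had every tt8-3 array below, which needs no choice of averaging. Over all genes tested, 19.7% had tt8-3 above without overlap and 13.4% had it below, 33.1% together.

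The wild-type arrays differed among themselves in these genes. On both slides the scaled level was higher at position 1 than at position 2 for 9 of the 10 genes, all but WER. Of all genes tested 46.8% ran that way and 40.3% the other way on both slides. The 75th percentile used for scaling was lower at position 1, at 545 against 804 on slide 1 and 785 against 981 on slide 2. Before scaling, TTG2, CPC, ETC1 and ETC3 had less signal at position 1 than at position 2 on slide 1. For MYB23 and GL2 the difference was over 1 log2 unit on both slides, at 1.17 and 1.31 for MYB23 and at 1.21 and 1.19 for GL2, which 1.93% of all genes reached. Between the tt8-3 arrays of a slide the same genes differed by -0.38 and 0.19 for MYB23 and by -0.04 and -0.07 for GL2. Over all genes tested the median absolute difference between the arrays of a slide was 0.15 and 0.12 in tt8-3 and 0.32 and 0.32 in wild type.

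Set against each wild-type position alone, a comparison chosen after seeing the data, the genes gave different values. Against position 1, GL1 was higher by 2.38, MYB23 by 1.33, GL2 by 1.16, TTG2 by 0.72 and CPC by 0.51. All were past the threshold in a fit where 33.7% of all genes passed, 18.5% higher and 15.2% lower. ETC3 had a change of -0.85 there (adjusted p = 0.011). TRY (-0.07), ETC1 (0.11) and ETC2 (0.08) had values close to 0 against position 1, with adjusted p of 0.86, 0.77 and 0.64. Against position 2, where 28.1% of all genes passed, 16.4% higher and 11.7% lower, the same 3 had changes of 1.63 (adjusted p = 0.063), 0.58 (0.047) and 0.83 (0.021). What separates the wild-type positions is not stated in the labels, and its part in the changes was not tested.

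**Figure D3:**
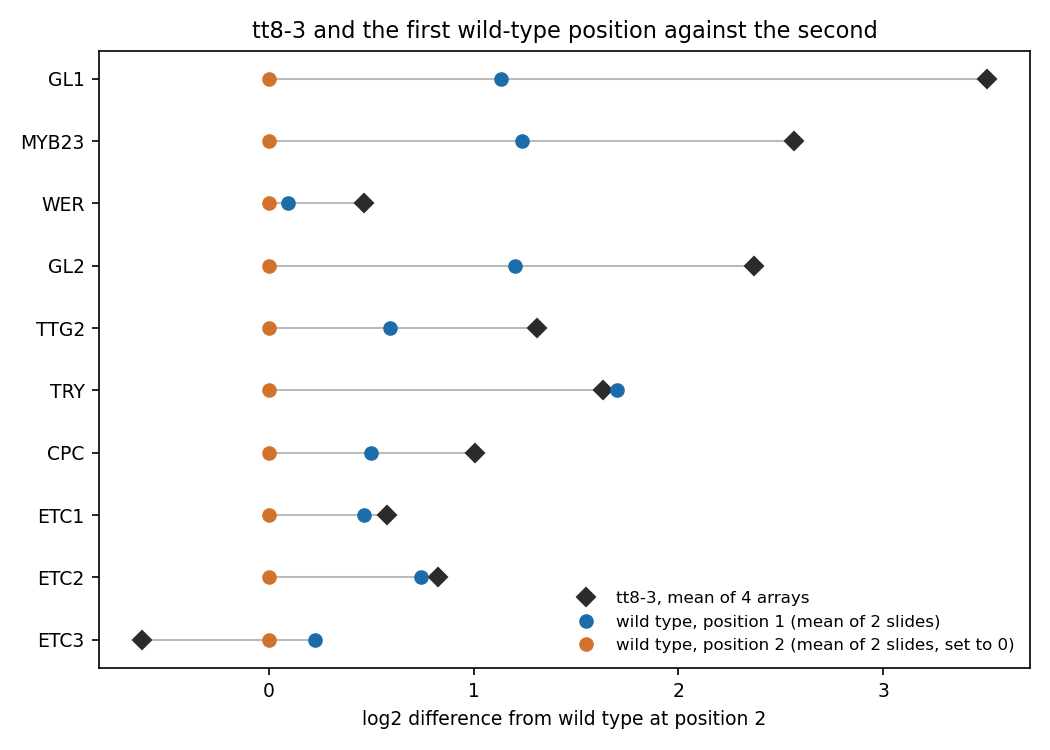
Log2 difference of tt8-3 (mean of 4 arrays, diamonds) and of wild type at position 1 (mean of 2 slides, blue) from wild type at position 2 (mean of 2 slides, orange, set to 0), for each of the 10 genes. For GL1, MYB23, GL2, TTG2 and CPC wild type at position 1 lies between wild type at position 2 and tt8-3, for TRY, ETC1 and ETC2 it lies beside tt8-3, and for ETC3 tt8-3 lies on the other side of 0.

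Of 28 further genes of the pathway, 22 were tested, of which 3 were higher and 3 lower in tt8-3, with a median change of 0.02. Over all genes tested 15.7% were higher and 10.9% lower, and TT8 itself was among the lower pathway genes. Of the 20 pathway genes well above background on all 8 arrays, 2 were higher and 2 lower. Of the 22, 1 was lower with arrays averaged by position, TT8 itself. With the slide block 8 were higher and 5 lower on slide averages, where 33.8% of all genes were higher and 30.7% lower. On single arrays the block gave 4 and 2, where 20.3% of all genes were higher and 14% lower. MYC1 (AT4G00480), a bHLH partner of the MYB factors in trichomes and roots, had levels of -1.79, -1.79, -1.55 and -1.69 on tt8-3 arrays, against -2.37, -2.88, -2.32 and -2.82 on wild-type arrays. The groups did not overlap, and its log2 change was 0.89 (SE 0.10, adjusted p = 0.011, and 0.12 by position). EGL3 (AT1G63650) had a log2 change of 0.32 (adjusted p = 0.29) and TTG1 (AT5G24520) of -0.16 (adjusted p = 0.35), and with the slide block EGL3 passed on slide averages (adjusted p = 0.013) and not on single arrays (0.27). GL3 (AT5G41315) was not tested, since it was well above background on 3 tt8-3 arrays and on none of the wild-type arrays. Raising the wild-type arrays to the lowest signal well above background left the tt8-3 mean 1.16-fold higher. That mean includes tt8-3 array 1, itself not well above background, so the value is not a strict lower limit. Its arrays overlapped, with tt8-3 array 1 at -6.68 and wild-type array 4 at -6.28. With no filter on detection GL3 had a log2 change of 1.22 (adjusted p = 0.056). Leaving out tt8-3 array 1, its lowest tt8-3 array, let GL3 enter the tests through tt8-3 alone, with a change of 1.54. The values that admit GL3 to that fit are those it tests, so its p is not given.

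Among further MYB genes, MYB106 (AT3G01140, NOECK), which restrains trichome branching, changed by 1.28 (SE 0.11, adjusted p = 0.0072, and 0.16 by position). Its 2 probes ran the same way, and the dimmer one gave 1.17. MYB82 (AT5G52600), an R2R3 MYB of trichomes, changed by 0.92 (SE 0.13, adjusted p = 0.017, and 0.12 by position). MYB82 was well above background on 4 tt8-3 arrays and 1 wild-type array, so it entered the fit through its tt8-3 signal alone. Its adjusted p therefore rests on the values that admitted it, and it is not among the pathway genes measured on all 8 arrays. With normexp its change was -0.04. The R3 MYB genes TCL1 (AT2G30432) and TCL2 (AT2G30424), inhibitors of trichomes on stems, had less signal in tt8-3. Their locus numbers are close to that of ETC2 (AT2G30420).

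TCL1 had levels of -3.17, -3.47, -3.08 and -3.25 on tt8-3 arrays, against -2.32, -3.32, -2.30 and -3.20 on wild-type arrays, a log2 change of -0.46 (SE 0.10, adjusted p = 0.040, and 0.48 by position). TCL2 had levels of -0.80, -1.03, -0.89 and -1.04 on tt8-3 arrays, against -0.11, -0.68, -0.16 and -0.75 on wild-type arrays, a log2 change of -0.52 (SE 0.086, adjusted p = 0.022, and 0.29 by position). The groups overlapped for TCL1 and not for TCL2. Against wild-type position 2 alone TCL1 had a change of 0.02 and TCL2 of -0.23, so the TCL1 difference lies in position 1. TCL1 passed in 2 and TCL2 in 5 of the 12 fits that left out an array or a biological replicate. Over all 7 R3 MYB genes measured, 1 was higher and 3 were lower by the slide averages, where 15.7% of all genes were higher and 10.9% lower. By position 0 of the 7 passed, where 3.12% of all genes did. The slide block on slide averages gave 4 higher and 3 lower, where 33.8% of all genes were higher and 30.7% lower. On single arrays the block gave 1 and 1, where 20.3% of all genes were higher and 14% lower. R3 MYB genes resemble each other in sequence, and how far a probe reads its relatives was not tested.

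Further lists held 6 tested C2H2 zinc-finger and SPL factors of the trichome pathway, 5 HD-ZIP IV and endocycle genes and 2 genes of root patterning. Of these, 0 passed by limma on slide averages or by position. The slide block gave 4 higher and 2 lower on slide averages, where 33.8% of all genes were higher and 30.7% lower. On single arrays it gave 1 and 1, where 20.3% of all genes were higher and 14% lower. The hair cell factors RHD6, RSL1 and RSL4 were not tested, since RSL1 and RSL4 were not well above background on any array and RHD6 was so on 3 tt8-3 arrays and on none of the wild-type arrays.

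**Figure D4:**
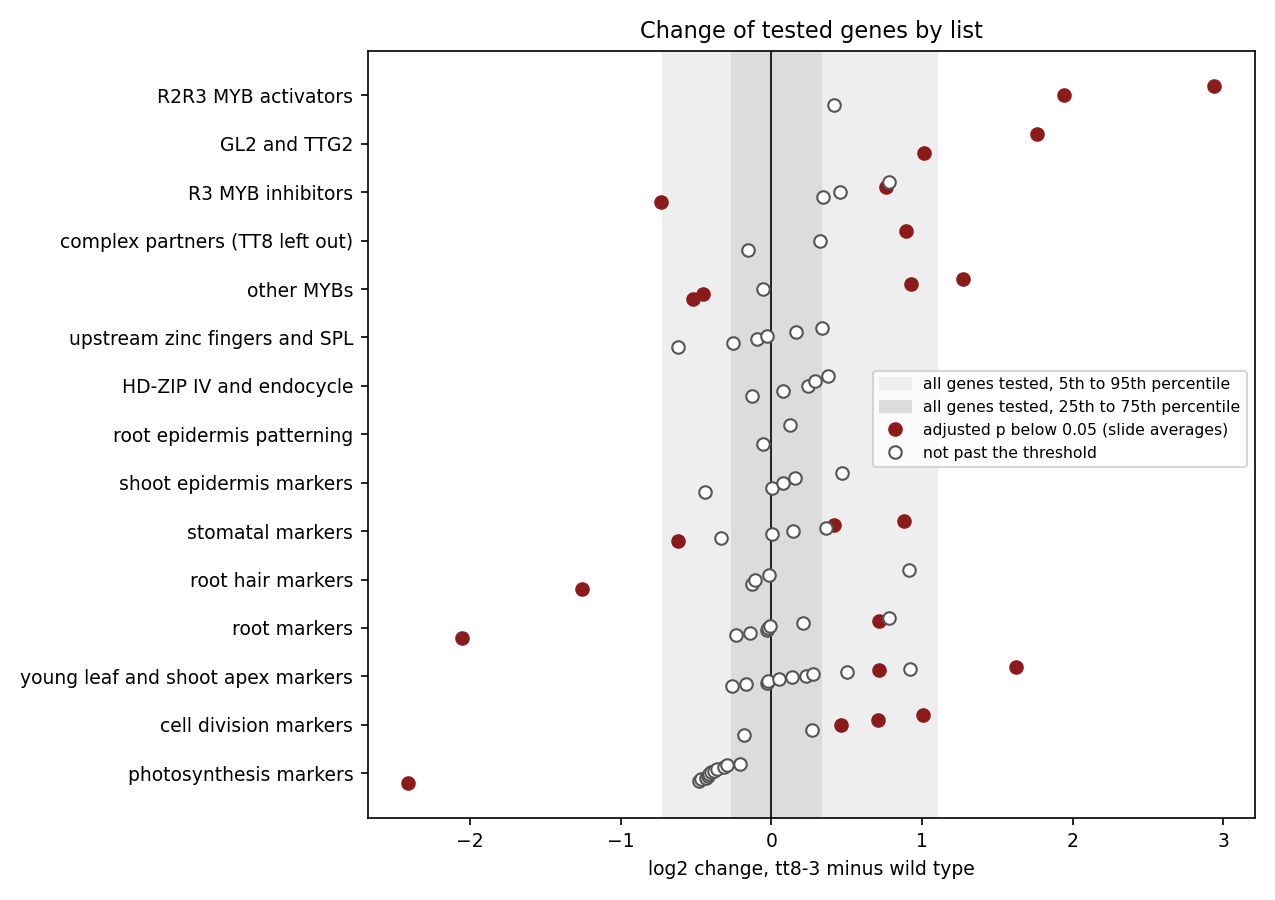
Log2 change, tt8-3 minus wild type by slide averages, of the tested genes of each list, filled where the adjusted p was below 0.05, over grey bands for the 25th to 75th (-0.26 to 0.33) and 5th to 95th percentile of all genes tested. TT8, at -10.69, is left out. GL1, MYB23 and GL2 lie beyond the wider band, as do GRF5 and MYB106 among the other genes on the higher side.

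All 12 photosynthesis markers and all 9 root markers were well above background on all 8 arrays, so both organs of the labelled whole seedling were represented. Summed levels below are log2 of the sum of a list's scaled signals. Of 12 markers of young leaves and the shoot apex, 2 were higher and 0 lower, where 15.7% of all genes were higher. Changes were positive for 8 of the 12, with a median of 0.18 and the lowest at -0.26 (FIL). With the slide block 6 were higher and 2 lower on slide averages, where 33.8% of all genes were higher and 30.7% lower. On single arrays the block gave 5 higher and 0 lower, where 20.3% of all genes were higher and 14% lower. GRF5, a growth factor of leaf primordia, changed by 1.63 (adjusted p = 0.0038, and 0.033 by position), and AN3, its coactivator, by 0.72 (adjusted p = 0.017, and 0.12 by position). The summed level of this list was 2.95 to 3.01 on tt8-3 arrays and 2.58 to 2.91 on wild-type arrays, which do not overlap.

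Of 5 cell division markers 3 were higher, KNOLLE by 1.01, CYCB1;2 by 0.71 and CYCB1;1 by 0.46, where 15.7% of all genes were higher. CDKB2;1 (0.27) and CDKB1;1 (-0.18) did not pass, and 0 of the 5 passed by position. Against wild-type position 1 alone CYCB1;2 had a change of 0.35 (adjusted p = 0.094). CYCB1;1 lost its call with quantile normalization (adjusted p = 0.073), the array median (0.075) and normexp (0.21), and passed in 4 of 12 fits that left out an array or a biological replicate. The summed level of the 5 markers was 1.91 to 2.25 on tt8-3 arrays and 0.93 to 1.63 on wild-type arrays, again without overlap. In wild type both sums were higher at position 1 than at position 2 on each slide, as were 9 of the 10 genes above. The part of leaf age or dividing tissue in the changes of GL1, MYB23, GL2 and TTG2 was not tested.

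Changes were positive for 4 of 5 shoot epidermis markers and for 5 of 7 stomatal markers, with medians of 0.07 and 0.14. Of 5 shoot epidermis markers 0 passed on slide averages and, with the slide block, 2 on slide averages and 0 on single arrays. Of 7 stomatal markers 2 were higher, EPF2 (0.88) and STOMAGEN (0.42), and 1 was lower, EPF1 (-0.62), and 0 passed by position. Over all genes tested 15.7% were higher and 10.9% lower by slide averages, the shares to set beside each such count in this paragraph. EPF2 lost its call with normexp (a change of 0.18, adjusted p = 0.36), as did EPF1 (adjusted p = 0.054). STOMAGEN lost its call with the array median (adjusted p = 0.11) and passed in 2 of 12 such leave-out fits. Of 5 tested root hair markers 1 was lower, PRP3 (-1.26, adjusted p = 0.040), where 10.9% of all genes were lower, and 0 passed by position. PRP3 was not well above background on all 8 arrays, and against wild-type position 2 alone its change was -0.55 (adjusted p = 0.23). COW1 ran the other way, at 0.92 (adjusted p = 0.11). The summed level of the root hair list was -2.16 to -1.62 on tt8-3 arrays, within the range of -2.59 to -1.38 on wild-type arrays. Of the root markers 1 was higher, PYK10 (0.71, adjusted p = 0.021, and 0.30 by position), and 1 lower, NRT2.1 (-2.05, adjusted p = 0.0032, and 0.028 by position). Against wild-type position 1 alone PYK10 had a change of 0.24 (adjusted p = 0.20). The summed level of the root markers was 5.10 to 5.45 on tt8-3 arrays and 4.28 to 5.17 on wild-type arrays. Of the photosynthesis markers 1 was lower, LHCB2.1 (-2.41, adjusted p = 0.0014, and 0.073 by position), where its other probe gave 4.43. All 12 had negative changes and, with the slide block, 12 were lower on slide averages and 1 on single arrays. Over all genes that block gave 33.8% higher and 30.7% lower on slide averages, and 20.3% and 14% on single arrays. Their summed levels were 10.5 to 11.3 on tt8-3 arrays and 10.6 to 11.8 on wild-type arrays.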

How the data were processed

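Per the file headers, the deposited scanner output holds linear intensities (a processed signal, and the median of each spot and of its background) with quality flags, and the submitters' processing notes name Agilent Feature Extraction 10.7.1.1. The deposited value table holds log2 values, which a check against the scanner files found to be scaled to the 75th percentile and then centred within each slide by subtracting each probe's median (the lowest correlation was 0.9999). Uneven and outlier spots were left out (4 to 23 per array), and no spot was saturated. Of 43603 probes 34358 were named through RefSeq accessions (TAIR10.1). The brightest probe stood for a gene, and genes entered the tests if that probe exceeded background clearly on each of the 4 arrays in at least 1 line. Fits used limma 3.58.1 in R 4.3.3 and were tested on simulated data. Slide numbers in the labels pair the lines, and slide deviations of both lines correlated at 0.78 over genes. The labels do not say what a biological replicate was grown from, so p-values may measure technical spread. Members, lists and tests were chosen with earlier results of these data known. The genes named are the 10 members, the 5 complex partners and list genes past the threshold, while RHD6, RSL1 and RSL4 were named after their values were seen. Alternatives covered background correction, scaling, filters, blocks and left-out arrays. Sequences and genome positions were not used here.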

Additional observations from a re-analysis of the deposited data

Results flagged for a closer look

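At the dimmer ETC3 probe, the first tt8-3 array stood apart from the other tt8-3 arrays. Its level was -3.89, against -3.77 to -3.75 on the others, a gap of 0.86 of the whole range. Of 22 groups of 4 arrays checked, chance flags about 1 in 20, and this gap is small beside the difference from wild type.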

How the results depend on the processing

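By slide averages 5131 genes, 6 of the 10 members and 6 further pathway genes passed. With arrays averaged by position the counts were 599, 1 and 1. With slide as a replicate block on slide averages, which the pairing by slide allows, they were 12393, 10 and 13, and with the deposited value table in the same block fit 12317, 10 and 13. The same block on the 8 single arrays gave 6586, 6 and 6, and a random block 7036, 6 and 5. Without a filter on detection 2406 genes passed. Leaving out an array or biological replicate gave 1782 to 5038 genes, 3 to 7 members and 2 to 6 pathway genes, with the 3 members found without the tt8-3 arrays of slide 1 and the 2 pathway genes without the wild-type arrays of slide 1. Where that left a line with 1 biological replicate, it was assumed to vary like the other line. The sign turned for TRY alone among the members, at -0.16 with normexp (spots of flagged background left out, a step added after seeing the data) and -0.071 against wild-type position 1 (a comparison added later, like the block fit of the deposited table). The cause of these shifts was not tested. Dim signal limits GL1 and TRY most.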
